A study of Mus musculus with 6 samples.

Results

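The insulin-like growth factor (IGF) system of the mouse liver was examined through 10 genes: the binding proteins Igfbp1 to Igfbp7, the ligand Igf1, the acid-labile subunit Igfals and the receptor Igf1r. All probe sets annotated to exactly 1 of these symbols were taken, which gave 26 of the 45101 probe sets in the table, for 10 of 18193 named genes. The family was chosen by 1 measured value, the fall of the Igfbp1 signal on these same arrays, so the values of Igfbp1 are given as a description without a test, and the other 9 genes were taken by name to ask whether its fall was shared. RNA came from livers of male BALB/c mice aged 10 weeks, with 3 arrays from control mice and 3 from mice exposed to isolation stress for 30 days. The mice arrived at 4 weeks of age, were kept 5 to a cage and had 10 days to acclimatise, after which an isolated mouse lived alone in its cage, shut off from social contact and with less bedding than controls. All had free access to water and the same diet, and neither the hour of killing nor the time since the last meal is given in the sources used here. Nothing in the labels states that the samples of a group are separate mice, so p-values measure the spread between these samples, which may be technical.

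IGF1 in the blood is made mainly by hepatocytes under the drive of growth hormone, and most of it circulates in a complex with a binding protein, usually IGFBP3, and the acid-labile subunit. The binding proteins lengthen the life of the ligand or keep it from its receptor. Hepatocytes secrete IGFBP1, whose gene is repressed by insulin and induced in fasting and by glucocorticoids, while several of the other binding proteins are made largely by endothelial, stellate or other non-parenchymal cells.

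In the human gene, insulin represses IGFBP1 through a promoter element read by FOXO transcription factors, and the mouse promoter is shown because Igfbp1 is the member with the large difference. The sequences are from RefSeq on GRCm38.p6 and hold the 250 bases before the annotated start, 5′ to 3′ on the strand of the gene. Capitals mark the stretch that runs from the element CAAAACA to a second element on the opposite strand, CAAAATA, which reads TATTTTG here. Igfbp3 is shown as the protein-coding neighbour of Igfbp1 on chromosome 11, where the genes lie on opposite strands with their ends facing.
Igfbp1, chr11:7197537-7197786, plus strand: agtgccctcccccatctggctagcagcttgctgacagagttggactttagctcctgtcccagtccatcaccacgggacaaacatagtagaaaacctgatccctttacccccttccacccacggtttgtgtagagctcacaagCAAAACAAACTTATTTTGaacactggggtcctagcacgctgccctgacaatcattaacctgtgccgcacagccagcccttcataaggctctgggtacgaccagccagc
Igfbp3, chr11:7213924-7214173, minus strand: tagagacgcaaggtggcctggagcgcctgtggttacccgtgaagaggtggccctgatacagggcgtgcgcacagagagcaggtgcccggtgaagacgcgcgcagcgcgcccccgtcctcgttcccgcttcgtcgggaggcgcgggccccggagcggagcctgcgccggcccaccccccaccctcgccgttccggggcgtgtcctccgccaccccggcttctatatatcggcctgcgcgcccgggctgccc

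The capitals in Igfbp1 lie 108 to 91 bases before the start, with CAAAACA at 108 to 102 and CAAAATA at 97 to 91, so the elements do not overlap. Promoter sequences were matched for all 10 genes, with 13 annotated starts. CAAAACA, searched on both strands, was found in this window in Igfbp1 alone among the 10 genes and in 5.56% of 32851 promoter windows, 1 per annotated start. CAAAATA was likewise found in Igfbp1 alone of the 10 and in 3.95% of promoters, and both elements together in 0.381%. Both elements are ends of the stretch shown for Igfbp1, so their matches in Igfbp1 came with the choice of elements. With shares this low, the lack of a match in the other family genes says little. The whole 18-base stretch was cut from the Igfbp1 window, so its match there was fixed in advance. It was found in 1 promoter, and nothing is read from that count. The FOXO consensus GTAAACA was found in 1 of the 10 genes, Igfals, at 1 of its 3 starts, and in 3.17% of promoters. These matches describe the letters in the window, and the arrays carry no measurement of binding.

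Signals are MAS5 intensities, the linear value per probe set of the Affymetrix algorithm. Differences are on the log2(signal + 2) scale, isolated minus control, and are too small for dim probe sets. Testing was limited to the brighter 50% of probe sets by mean log2 value, 22519 in all, and the test was limma with Benjamini-Hochberg adjustment over all of them and a threshold of 0.05. Of the 26 probe sets of the family, 22 passed this filter, with at least 1 for each of the 10 genes, and the 4 that did not belong to Igfbp5 and Igf1r. The median signal per array ran from 18.4 to 22.1, and the ratio of the 3′ to the 5′ control probe set of Gapdh from 0.692 to 0.719 in controls and from 0.689 to 0.695 in isolated mice. The same ratio for Actb was higher, from 2.14 to 2.32 in controls and from 1.99 to 2.35 in isolated mice. Hepatocyte markers summed to 48165 to 52971 in controls and 48373 to 53070 in isolated mice.

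**Figure D1:**
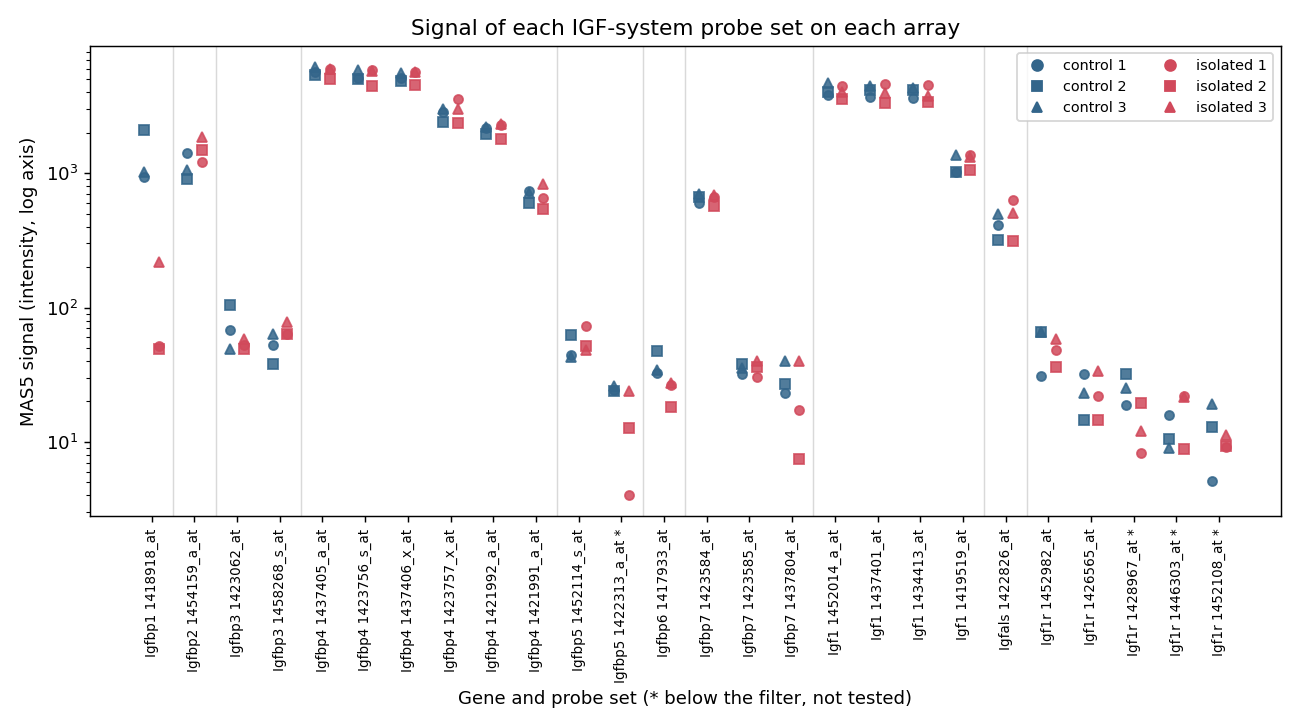
MAS5 signal (log axis) of each of the 26 probe sets on each of the 6 arrays, with controls in blue, isolated mice in red and a marker shape per replicate number. Igfbp1 is separated by a wide gap, with controls from 942 to 2096 and isolated mice from 49.4 to 220, and for the other probe sets the colours overlap or lie close together.

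Igfbp1 was lower in every isolated sample than in every control sample, by an average of 14.9-fold. The control signals of its single probe set (1418918_at) were 942, 2096 and 1023 in replicates 1, 2 and 3, and the isolated signals were 52.1, 49.4 and 220. Replicate 2 stood highest among controls, replicate 3 highest among isolated mice, and the lowest control was still above the highest isolated sample. The means were 1354 ± 644 and 107 ± 97.8 (SD, n = 3 per group), with a log2 difference of -3.89. The fold was 24 without isolated replicate 3, and 11.5 without control replicate 2 or without isolated replicate 2. No second probe set of Igfbp1 was on the array to set beside this one. In bulk tissue, fewer cells that make a transcript and less of it per cell cannot be told apart.

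No other gene of the family passed the test. Of the 21 tested probe sets of the other 9 genes, 0 were called lower and 0 higher by limma, against 0.857% called lower and 0.773% called higher among all 22519 tested probe sets (193 and 174; 183 and 258 with median centring, 242 and 148 with quantile normalization). At an unadjusted p under 0.05 there was 1 of 21, Igfbp2, where 11.4% of all tested probe sets reached that level. The median log2 difference of the 21 was -0.001, beside 0.035 over all tested probe sets, with 12 differences below 0 and 9 above. Their differences ran from -0.67 to 0.44. The 95% intervals, not adjusted for the number of probe sets, lay above -1 on the log2 scale for 19 of the 21. The largest fall that any of them allowed was 3.04-fold, for a dim probe set of Igfbp7.

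**Figure D2:**
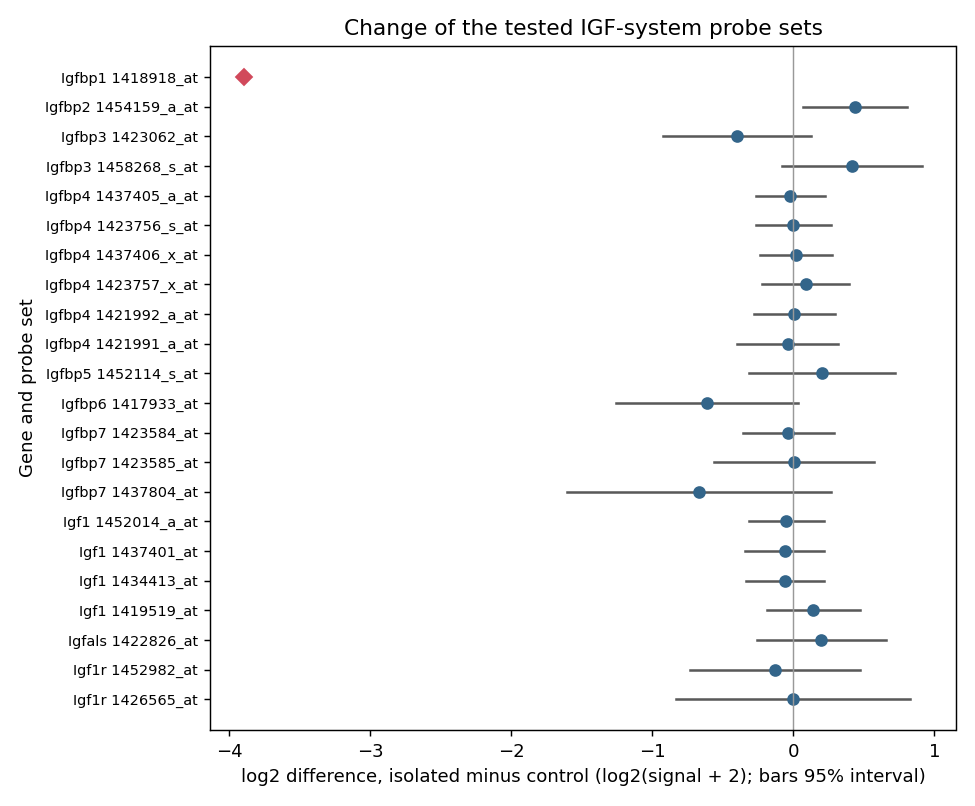
Log2 difference (isolated minus control, log2(signal + 2)) of the 22 tested probe sets, with the limma 95% interval as a bar. Igfbp1, a diamond without an interval because it was chosen for its fall, lies at -3.89, and the other 21 lie between -0.67 and 0.44.

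Igfbp2, a binding protein that is abundant in the blood and raised by fasting, had the smallest p of the 21 and a difference in the direction opposite to Igfbp1. Its signals were 1415, 911 and 1063 in controls, while isolated mice had 1220, 1485 and 1874. The groups overlapped, since control replicate 1 lay above isolated replicate 1. The log2 difference was 0.44 ± 0.18 (SE), with a limma adjusted p of 0.312. Igfbp5, which neighbours Igfbp2 on chromosome 1 as Igfbp3 does Igfbp1, is a binding protein held in the extracellular matrix. Its tested probe set (1452114_s_at) read 44.3, 62.6 and 42.5 in controls, while isolated mice had 72.9, 51.5 and 48.6, a log2 difference of 0.20 ± 0.25 with a limma adjusted p of 0.854. Its other probe set (1422313_a_at) was below the filter and read 24.3, 23.8 and 26.2 against 4.06, 12.7 and 24, with an exact two-sided permutation p of 0.2. The lower readings rest on isolated replicates 1 and 2, and the pair of Igfbp5 probe sets differed in direction.

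Igfbp3, the main carrier of IGF1 in the blood, gave opposite directions with its 2 probe sets. Probe set 1423062_at read 68.3, 104 and 49.4 in controls, while isolated mice had 52.3, 48.8 and 58.4, a log2 difference of -0.40 ± 0.25. Probe set 1458268_s_at, of a type whose probes may match more than 1 transcript, read 52.9, 37.9 and 63.4 against 63.2, 63.4 and 77.6, a log2 difference of 0.41 ± 0.24. Neither passed, with limma adjusted p of 0.625 and 0.564, and the groups overlapped in both. The first probe set is carried by control replicate 2, without which its difference was -0.13. Without the same array, the difference of 1458268_s_at was 0.22. No direction can therefore be given for Igfbp3, the neighbour of Igfbp1.

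Igfbp4, a binding protein that holds IGF1 away from its receptor until it is cut by the protease PAPP-A, was measured by 6 probe sets that gave nearly the same result. Probe set 1437405_a_at read 5694, 5359 and 6138 in controls, while isolated mice had 5960, 5044 and 5963. The groups overlapped in each of the 6, and isolated replicate 2 was the lowest array in all 6. These probe sets read the same gene. Isolated replicate 2 also had the lowest 2% trimmed mean signal of the arrays, 92.5, with control replicate 1 close to it at 93. A part of array scale in this order was not tested. The log2 differences of the 6 probe sets ran from -0.04 to 0.09. For 1437405_a_at the difference was -0.02 ± 0.12 (SE), and its interval allowed a fall of no more than 1.2-fold and a rise of no more than 1.17-fold.

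Igfbp6, which prefers IGF2 over IGF1, was the only other tested member whose groups did not overlap. Its dim signals were 32.5, 47.1 and 34.1 in controls, while isolated mice had 26.5, 18.3 and 27.6. All isolated values lay under all control values, by a narrow margin between control replicate 1 and isolated replicate 3. The log2 difference was -0.61 ± 0.31, with a limma adjusted p of 0.478. This is 1 of 21 probe sets, where 5.79% of all tested probe sets separated the groups with isolated mice lower.

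Igfbp7, a related protein of low affinity for IGFs made by vascular cells, had 3 probe sets and passed in none. The brightest, 1423584_at, read 597, 668 and 699 in controls, while isolated mice had 662, 571 and 686, a log2 difference of -0.04 ± 0.15 with a limma adjusted p of 0.97. Probe set 1423585_at differed by 0.00 ± 0.27. The dimmest, 1437804_at, read 23.1, 26.9 and 40.2 against 17.4, 7.48 and 39.7, a log2 difference of -0.67 ± 0.45 with a limma adjusted p of 0.661. Its lower mean rests on isolated replicate 2, without which the difference was -0.14.

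Igf1, the ligand itself, passed the test on none of its 4 probe sets. Probe set 1452014_a_at read 3813, 4007 and 4693 in controls, while isolated mice had 4476, 3581 and 4027. The groups overlapped fully, with isolated replicate 2 lowest and control replicate 3 highest. The log2 difference was -0.05 ± 0.13 (SE), at a limma adjusted p of 0.943, while the 95% interval allowed a fall of at most 1.25-fold and a rise of at most 1.16-fold. Probe sets 1437401_at and 1434413_at differed by -0.06 each. The fourth, 1419519_at, read 1024, 1016 and 1370 against 1370, 1064 and 1315, a log2 difference of 0.14 ± 0.16 with a limma adjusted p of 0.831.

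Igfals, the acid-labile subunit that completes the circulating complex, read 415, 319 and 499 in controls, while isolated mice had 630, 311 and 507. The isolated samples held both the highest and the lowest value of the 6. The log2 difference was 0.20 ± 0.22, with a limma adjusted p of 0.833. Within the isolated group, Igfals and all 4 probe sets of Igf1 were highest in replicate 1 and lowest in replicate 2, 5 of 5 probe sets, which held for 3 of 5 after median centring or quantile normalization. This order was noticed after the values were seen.

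Igf1r, the receptor through which IGF1 signals and which hepatocytes of the adult carry at low levels, was dim on all 5 of its probe sets. The brightest, 1452982_at, read 31, 65.8 and 65.7 in controls, while isolated mice had 48.1, 35.9 and 58.4, a log2 difference of -0.13 ± 0.29 with a limma adjusted p of 0.933. Probe set 1426565_at differed by 0.00 ± 0.40. The 3 probe sets below the filter overlapped between groups, and their log2 differences were -0.88, 0.43 and -0.15, with exact two-sided permutation p of 0.2, 0.4 and 0.7. With 3 arrays per group, the smallest p that test can give is 0.1.

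Markers of the cells that make these proteins were read on the same arrays. Of the 6 hepatocyte, 8 endothelial, 8 stellate or fibroblast and 5 Kupffer cell markers tested, 0 were called. Among all tested genes, 0.847% were called lower and 0.901% higher. The 8 stellate or fibroblast markers, each by its brightest tested probe set, had log2 differences from -0.006 (Reln) to 0.626 (Pdgfrb), with a median of 0.191. Of their further tested probe sets, Col1a1 1423669_at differed by 1.15 ± 0.47, from dim signals and with a limma adjusted p of 0.313. Colec11 1429179_at differed by 0.01 ± 0.24. Lrat was higher in isolated mice without overlap, and the hepatocyte marker Apoa1 (1419232_a_at) was lower without overlap, at a log2 difference of -0.09. Among all tested probe sets, 5.79% separated the groups with isolated mice lower. The share with isolated mice higher was not computed. Summed stellate and fibroblast markers (9 of 9 measured), led by Dcn, Reln and Colec11, ran from 3414 to 4565 in controls and from 3905 to 4399 in isolated mice. Those of endothelial cells (8 of 8) ran from 1734 to 2088 and from 1562 to 1945, and those of Kupffer cells (6 of 6) from 2158 to 2534 and from 1776 to 2534. Adipocyte markers (4 of 6 measured) summed to 127 to 215 in controls and to 211, 381 and 504 in isolated replicates 1, 2 and 3, led by Fabp4. Fabp4 (1417023_a_at) read 117, 202 and 157 in controls, and 203, 300 and 404 were its isolated signals, with no overlap and a limma adjusted p of 0.0578, while its other 2 tested probe sets overlapped between the groups. Below the filter, Adipoq read 4.38, 8.48 and 15.6 against 3.78, 59.5 and 54.8, and Retn read 2.39, 2.78 and 3.88 against 2.65, 20 and 42.2. Lep, also below it, read 3.3 or less on all 6 arrays, and none of the 4 measured fat markers was at 0. The part of fat tissue in the results on the family was not tested.

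The wider pathway was read through 55 other genes in 6 lists, of which 53 had a single-symbol probe set and 42 were tested, each by its brightest tested probe set. The lists were chosen with earlier results of these data known, so the counts of calls describe the lists and do not test them. Of the 42, 2 were lower by limma, Socs2 and Pdk4, 0 were higher and 40 did not pass, where 0.847% of all genes were called lower and 0.901% higher. The median log2 difference was -0.093. Without isolated replicate 3 the count was 4, with G6pc and Pck1 added, and without control replicate 3 it was 1, Pdk4.

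**Figure D3:**
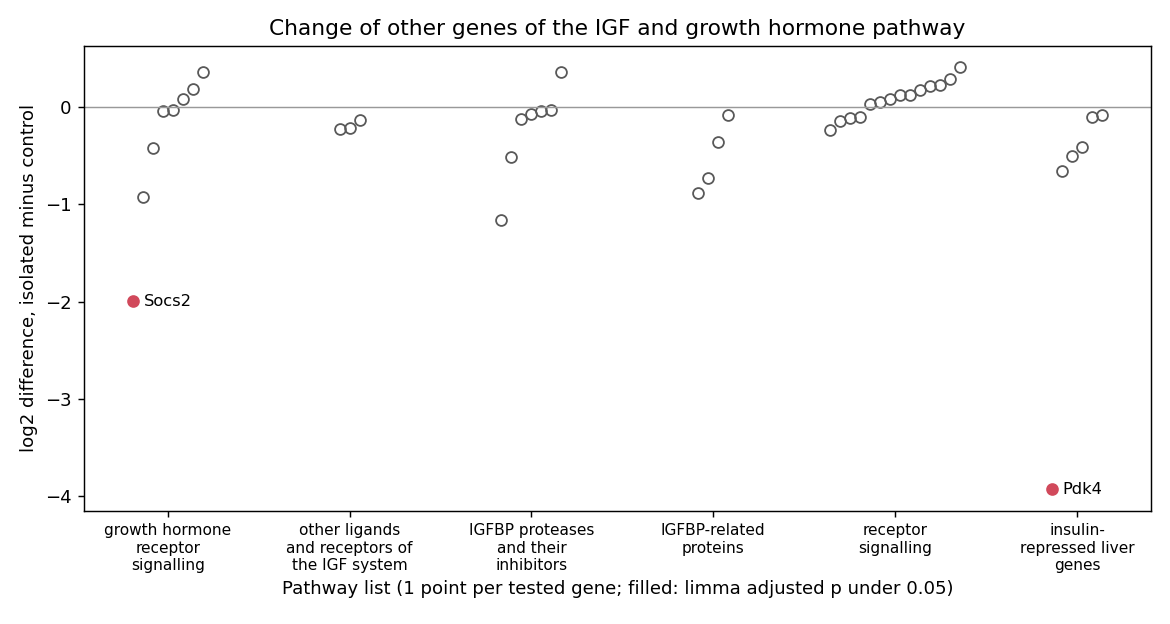
Log2 difference (isolated minus control) of the 42 tested genes in 6 pathway lists, 1 point per gene, filled where the limma adjusted p was under 0.05. Pdk4 at -3.93 and Socs2 at -1.99 are filled, and the other 40 are open.

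In growth hormone receptor signalling, which drives Igf1 and Igfals through STAT5, 1 of 8 tested genes fell, 0 rose and 7 did not pass. Socs2, a feedback inhibitor of the receptor that STAT5 induces, read 445, 689 and 473 in controls, while isolated mice had 341, 41 and 155. All isolated values lay under all control values, with the deepest in isolated replicate 2. The log2 difference was -1.99 ± 0.43, with a limma adjusted p of 0.0172. The call was lost in 8 of 15 alternatives, among them the fit without control replicate 3 (adjusted p 0.0857), and over the 15 the adjusted p ran from 4.57e-07 to 0.53. Other tested Socs2 probe sets were 1418507_s_at, at -1.71 with a limma adjusted p of 0.0225, and 1442586_at, at -0.62 with 0.556. Below the filter, 1438470_at and 1441476_at were lower in isolated mice without overlap. There 1446085_at went the other way, at 3.91, 6.73 and 2.78 against 74.2, 8.21 and 19.3. Cish, another STAT5-induced inhibitor, named after its values were seen, read 225, 263 and 176 against 422, 39.2 and 88, with a limma adjusted p of 0.502. Its log2 difference of -0.92 became -1.86 (adjusted p 2.58e-05) without isolated replicate 1 and -0.17 (0.909) without isolated replicate 2. Jak2, the kinase of the receptor, read 139, 123 and 141 against 178, 172 and 170, with no overlap and a limma adjusted p of 0.454. The share of all tested probe sets that separated the groups with isolated mice higher was not computed. A second tested probe set of Jak2, 1421065_at, overlapped between groups, at 0.14 ± 0.24 with a limma adjusted p of 0.914. The receptor Ghr had a log2 difference of 0.08 ± 0.12.

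The remaining IGF genes held no call. Of 3 other ligands and receptors tested, the insulin receptor Insr had a log2 difference of -0.23 ± 0.16 and the clearance receptor Igf2r of -0.22 ± 0.18, with limma adjusted p of 0.678 and 0.757. A second tested probe set of Igf2r, 1424111_at, went the other way, at 0.14 ± 0.21 with a limma adjusted p of 0.888. Of 7 proteases and inhibitors, Adam12 had -1.16 ± 0.45 from dim signals and Mmp14 0.36 ± 0.19, with limma adjusted p of 0.285 and 0.519. Of 4 tested proteins that share the IGFBP domain, the connective tissue growth factor Ccn2 read 96.2, 239 and 221 against 92.1, 122 and 69.8. Its groups overlapped through control replicate 1, and its limma adjusted p was 0.144, and from 0.00342 without that array to 0.453 without control replicate 2. Ccn5 differed by -0.73 ± 0.37, with a limma adjusted p of 0.484.

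Downstream of the receptors, 0 of 14 tested signalling genes passed. The adaptor Shc1 had a log2 difference of 0.41 ± 0.22 and the phosphatidylinositol 3-kinase subunit Pik3r1 of 0.23 ± 0.16, with limma adjusted p of 0.502 and 0.676. Foxo1, the transcription factor known to act on the IGFBP1 element, had 3 tested probe sets that differed in size but not in direction. The brightest, 1416983_s_at, differed by -0.23 ± 0.18 with a limma adjusted p of 0.729 and overlapping groups. Isolated mice lay under all controls on 1416981_at, which read 262, 250 and 348 against 177, 171 and 222, and on 1416982_at, which read 230, 207 and 294 against 146, 168 and 189. Their log2 differences were -0.58 and -0.53, with limma adjusted p of 0.153 and 0.22. The insulin receptor substrate Irs2, itself repressed by insulin, had 1 probe set, below the filter, at 18.9, 30.1 and 13.3 in controls, while isolated mice had 2.62, 2.72 and 7.46. Its groups did not overlap, at the smallest exact permutation p the design allows, 0.1, and these signals are too dim for a fold. Foxo1 and Irs2 were named after their values were seen. Among tested probe sets, 5.79% separated the groups with isolated mice lower, and no such share was computed below the filter.

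Of the 6 other insulin-repressed liver genes, 1 fell and 5 did not pass. Pdk4, a kinase that inhibits pyruvate dehydrogenase, read 153, 679 and 408 in controls, while isolated mice had 17.5, 26.6 and 19.9. The groups were far apart, and the 15.3-fold difference had a limma adjusted p of 1.34e-06 (0.0709 with a robust trend). The list was chosen with earlier results of these data known, so this p is a description. G6pc, glucose-6-phosphatase, read 3106, 2861 and 3108 against 1288, 2029 and 2695. Its groups did not overlap, and its log2 difference of -0.66 ± 0.19 had a limma adjusted p of 0.0881. It was -0.90 (adjusted p 0.00942) without isolated replicate 3 and -0.37 (0.397) without isolated replicate 1. Ppargc1a and Pck1 had log2 differences of -0.50 and -0.41, with limma adjusted p of 0.375 and 0.204. For Pck1 the limma adjusted p was 0.0407 without isolated replicate 3 and 0.612, at a difference of -0.26, without isolated replicate 1.

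Genes outside the family were ranked by how like Igfbp1 they were over the arrays. Likeness was the root mean square distance between log2 profiles, each centred on its mean over the 6 arrays, among 10976 genes, with the 10 family genes left out of the search. The nearest were Fgf21, a liver hormone of fasting (distance 0.764), Pdk4 (0.843), Txnip, an inhibitor of thioredoxin (0.846), Depp1 (0.89) and Rgs16, a regulator of G protein signalling (0.912). The median distance over all candidates was 2.115. A choice by likeness to Igfbp1 fixes that these genes are lower in isolated mice, so no test is given here. It also favours a like order of arrays within each group, so the orders that follow are a description. Isolated replicate 3, the highest isolated array for Igfbp1, was also the highest isolated array, with replicates in the order 1, 2 and 3, for Fgf21 (16.5, 10.3 and 26), Txnip (231, 166 and 310), Depp1 (185, 109 and 402) and Rgs16 (50.1, 34.3 and 287), but not for Pdk4. Control replicate 2, the highest control for Igfbp1, was highest for Fgf21 and Pdk4 and not for the other 3. In the 250 bases before their starts, CAAAATA was found in Depp1 and GTAAACA in Txnip.

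**Figure D4:**
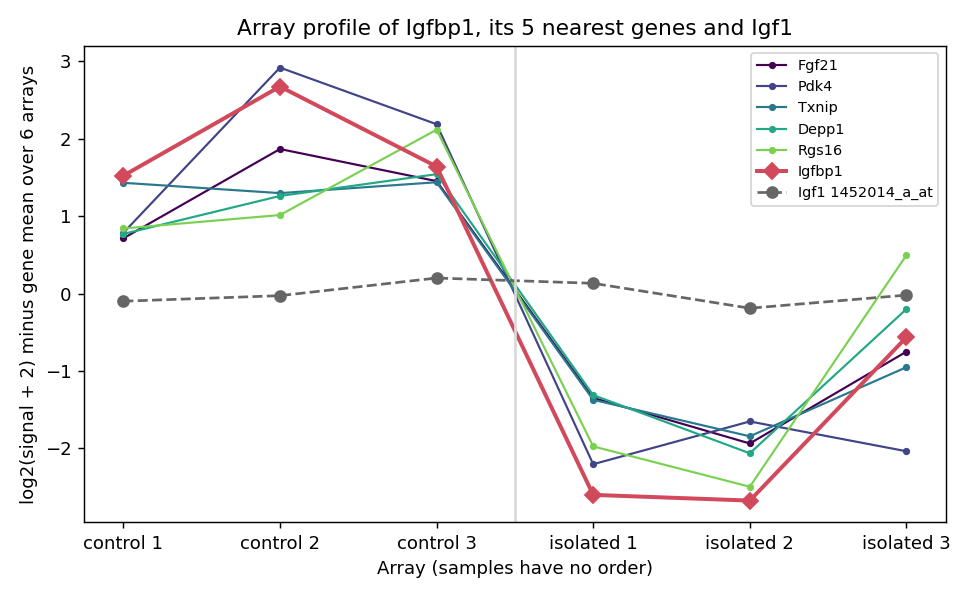
Centred log2(signal + 2) on each array for Igfbp1 (thick red), the 5 genes with the nearest profile and Igf1 (dashed grey, 1452014_a_at). Igfbp1 and its nearest genes drop between the control and isolated arrays, and the Igf1 values of both groups overlap.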

How the data were processed

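The deposited table gives 1 intensity per probe set and array, made with MAS5 per the submitters' processing notes. Its scaling target, detection calls and version: not given in the sources used here. The 6 arrays, whose 2% trimmed means lay between 92.5 and 111, were not rescaled. After 64 control probe sets were set apart, a pseudocount of 2 was added, log2 taken, and 22519 of 45037 probe sets kept (mean log2 of at least 4.32, a signal of about 18). A 2-group model was fitted with limma 3.58.1 in R 4.3.3, with eBayes and an intensity trend. Tests were two-sided. Genes were named from the platform annotation, from probe sets with 1 symbol. Arrays carry no counts, so the number of arrays limits precision. The members, lists and tests were chosen with earlier results of these data known. Named genes were every member, each called pathway gene, the 2 genes of smallest p in each pathway list and the 5 nearest to Igfbp1; Cish, Ghr, Foxo1, Irs2, Ppargc1a and Pck1 were added after their values were seen. Fits were tested on simulated data. Alternatives covered pseudocount, filter, scale, variance model, array weights, a replicate block and leaving out each array. Same-numbered samples did not deviate together (correlations 0.008, 0.044 and 0.005). Promoters came from a RefSeq table of GRCm38.p6. Figures used matplotlib 3.10.9.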

Additional observations from a re-analysis of the deposited data

How the results depend on the processing

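In all 15 alternatives, 0 probe sets of the 9 genes besides Igfbp1 were called, and the smallest adjusted p was 0.136, for Igfbp2 without isolated replicate 1. Their median log2 difference stayed between -0.061 and 0.109. Of 375 recomputed values for these probe sets, 44 changed sign, none of them called and all with a main difference within 0.20 of 0. The log2 difference of Igfbp1 ran from -4.585 to -3.529 with 1 array left out. The count of called probe sets in the whole family, which the choice of Igfbp1 sets at 1 and from which nothing is read, was 0 with a robust trend. Pathway calls numbered 2, and 1 without a filter, with median centring, with quantile normalization, without the intensity trend and with the replicate block, 0 with a robust trend, and 1 to 4 with 1 array left out. Over all probe sets, lower and higher calls numbered 16 and 15 without the trend, 101 and 81 without a filter, and 248 and 265 with the replicate block. Lower calls were 82 without control replicate 3 and higher calls 116 and 97 without control replicate 2 and isolated replicate 3. The replicate block changed no other call named here than that of Socs2. The causes of these shifts were not tested.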

Other observations

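Igf1os, a transcript annotated antisense to Igf1 and chosen here after its values were seen, had 1 probe set below the filter. It read 22.6, 21.6 and 11 in control replicates 1, 2 and 3 and 7.73, 0.975 and 6.63 in isolated mice. The groups did not overlap, at the smallest exact two-sided permutation p the design allows, 0.1, while the 4 probe sets of Igf1 overlapped. Among tested probe sets, 5.79% separated the groups with isolated mice lower, but Igf1os was not among these and no such share was computed below the filter. MAS5 signals this low are noisy, and no detection calls were used here.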
